A study of Mus musculus with 3 samples.

Results

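Haemoglobin-rich barcodes, read here as red cells and reticulocytes in a leukocyte preparation, made up 1269 of 23870 barcodes in 3 single-cell libraries of mouse peripheral blood. Droplets that also held another cell were not excluded. A barcode was placed in this set when UMIs of the adult globin genes Hba-a1, Hba-a2, Hbb-bs and Hbb-bt came to 50% or more of its UMIs (unique molecular identifiers, 1 per counted molecule), with no minimum number of genes. The set held 99 of 11105 barcodes in replicate 1, 758 of 5736 in replicate 2 and 412 of 7029 in replicate 3. The other 22601 barcodes served as the comparison. The blood came from untreated mice that the labels call male, aged 8 weeks in replicate 1, 9 weeks in replicate 2 and 10 weeks in replicate 3, with no strain, allele or agent named. Each age has 1 library, so an effect of age cannot be told apart from one of the library, and the labels do not say that the libraries come from separate animals, so p-values measure only the spread between these samples. Per the labels' protocols the erythrocytes were lysed, the cells were stained with the DNA dyes DAPI and Draq5, sorted and fixed, and transcripts were then counted through probes. All 3 libraries carry the cell type label leukocytes.

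Red cells of mammals lose their nucleus before they enter the blood. The reticulocyte, the youngest circulating stage, still carries ribosomes, some mitochondria and a stock of mRNA made before the nucleus was expelled, and these are removed within days by autophagy and by the ubiquitin system. The mRNA stock serves the finished cell: haem synthesis, iron delivery to mitochondria, the membrane skeleton that lets the cell deform, gas exchange and protection from oxidants.

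The haemoglobin share chose the set, so its values are a description. It had a median of 72.3%, 79.9% and 77.2% in replicates 1, 2 and 3, and a maximum of 83.9%, 90.8% and 89.5%. Between 50% and 60%, just inside the threshold, lay 12, 9 and 9 barcodes, and between 40% and 50%, just outside, lay 7, 8 and 1; another 7, 107 and 45 lay between 20% and 40%. The barcodes just inside had medians of 314, 676 and 358 non-haemoglobin UMIs, and those just outside 516, 1337 and 753. The set came to 0.891% of the barcodes in replicate 1 (95% exact binomial interval 0.725% to 1.08%), 13.2% in replicate 2 (12.3% to 14.1%) and 5.86% in replicate 3 (5.32% to 6.44%); these intervals cover counting error only.

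**Figure D1:**
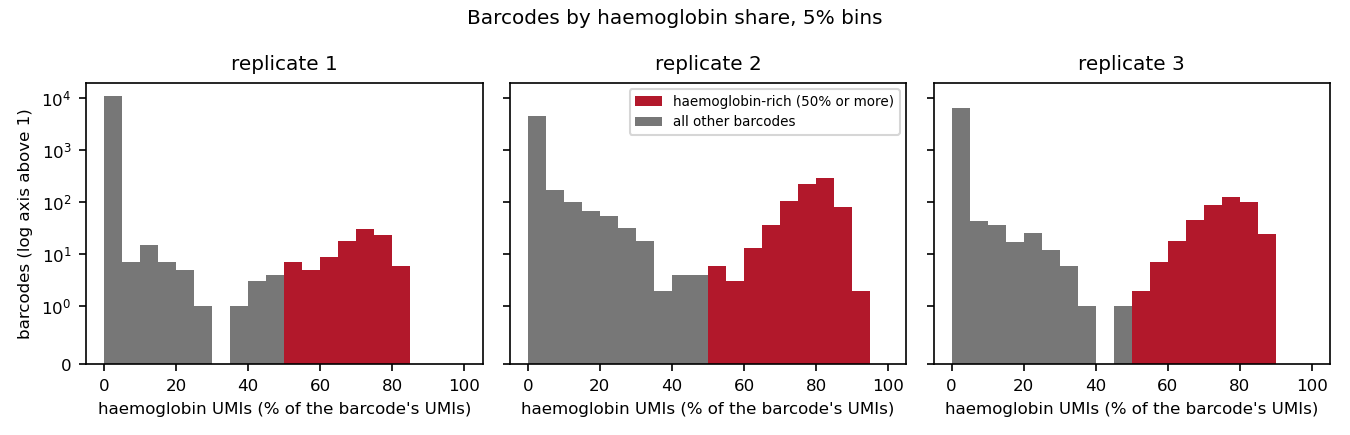
Number of barcodes (vertical axis, logarithmic above 1) in 5% bins of the haemoglobin share of each barcode's UMIs (horizontal axis), 1 panel per library; red bars are the haemoglobin-rich barcodes and grey bars all others. Between 50% and 60% lie 12, 9 and 9 barcodes, between 40% and 50% lie 7, 8 and 1, and between 20% and 40% lie 7, 107 and 45.

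These barcodes were poor in other transcripts. They held a median of 853, 1418.5 and 986 UMIs, of which 245, 297 and 224 were not haemoglobin, while all other barcodes held a median of 3548, 3227.5 and 3137 non-haemoglobin UMIs. The median number of genes was 102, 118 and 99 in the haemoglobin-rich barcodes, against 2073, 1924 and 1882 in all others, and 1179 of the 1269 fell under 200 genes. Their largest totals were 2044, 6232 and 3177 UMIs. The lowest total in the set was 508 UMIs in replicate 1, 1113 in replicate 2 and 506 in replicate 3, whereas the lowest of the other barcodes was 505, 499 and 504, so replicate 2 lacks haemoglobin-rich barcodes of low total. Summed per library, 26931, 253012 and 106283 non-haemoglobin UMIs were left to describe, against 45588930, 17969003 and 22868479 in the other barcodes. Of the libraries' barcode sequences, 83 were shared by replicates 1 and 2, 101 by 1 and 3 and 48 by 2 and 3, and 1 was haemoglobin-rich in both libraries of a pair.

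Haemoglobin UMIs were not confined to the set. It held 64.0%, 67.2% and 71.6% of each library's haemoglobin UMIs, and haemoglobin made up 0.0807%, 2.44% and 0.58% of the UMIs of the other barcodes, whose median barcode had 0, 37 and 5. Beta-chain UMIs outnumbered alpha-chain UMIs in the haemoglobin-rich barcodes, where alpha chains were 36.0%, 44.2% and 44.0% of the 4 genes' UMIs; in the other barcodes alpha chains were 45.2%, 50% and 49.7%. The alpha share was thus lower in the haemoglobin-rich barcodes of every library, a description with no test, since these genes chose the set. Hbb-bt gave 33.0%, 34.9% and 30.7% of the beta-chain UMIs in the set, against 30.7%, 30.6% and 27.3% in all others. Hba-a1 had 67, 887 and 280 UMIs and Hba-a2 23458, 405703 and 147230 in the set. In the GENCODE M21 transcripts, 86.9% of the 50-base windows of Hba-a2 occur unchanged in Hba-a1, so the split between these copies is uncertain; 65.8% of the windows of Hbb-bs occur in Hbb-bt. In the GRCm38 annotation Hba-a1 lies at chr11:32283511-32284465 and Hba-a2 at chr11:32296489-32297298, both on the plus strand, and Hbb-bs at chr7:103826534-103828096 and Hbb-bt at chr7:103812524-103813996, both on the minus strand. The deposited counts carry no statement of their own build in the sources used.

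The markers of a red cell were present in nearly every barcode of the set. All 1269 had at least 1 UMI of Alas2, Bpgm, Fech, Slc25a37 or Tent5c, and 1268 had at least 3 of these 5. Together the 5 genes came to 228324, 220946 and 215528 CPM, where CPM is the usual scaling of counts to library size, taken here over the non-haemoglobin UMIs of a sum, against 352, 1580 and 661 CPM in all other barcodes. After thinning every barcode to 100 non-haemoglobin UMIs, which left out 16 haemoglobin-rich barcodes of replicate 3 that had fewer, at least 1 Alas2 UMI was found in 100%, 100% and 99.7% of the haemoglobin-rich barcodes, against 0.336%, 4.8% and 1.33% of the others; without thinning the shares were 100%, 100% and 99.8%, against 2.15%, 41.2% and 11.2%. The leukocyte label did not suit these barcodes: Ptprc, which encodes the leukocyte antigen CD45, had at least 1 UMI in 3.03%, 3.17% and 3.64% of them, against 96.7%, 91.8% and 91.7% of the others, and in 1.01%, 1.06% and 1.26% against 13.4%, 11% and 10.8% after thinning. No UMI of the 12 common leukocyte genes was seen in 525 of the 1269.

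The remaining transcripts were then tested with the globin genes of the rule left out of every count and total. The gene lists used below were chosen with earlier results of these data known, so their counts are descriptions. How many genes were called higher or lower depended on the scaling. The 10 most abundant genes held 36.1%, 35.0% and 35.2% of their non-haemoglobin UMIs, against 5.3%, 6.0% and 6.06% in all others. With TMM scaling (edgeR's quasi-likelihood test, library as a block, Benjamini-Hochberg adjusted p of 0.05) 827 of 10736 genes were higher, which is 7.7%, and 463 were lower, which is 4.31%. With plain non-haemoglobin totals 504 were higher, 4.69%, and 8092 lower, 75.4%. Higher genes were 64.1% of the calls with TMM and 5.86% with plain totals, and the median log2 fold over all genes tested was -1.26 and -3.40. All 504 genes that were higher with plain totals were also higher with TMM, and all 463 that were lower with TMM were also lower with plain totals; "rose" and "fell" are used below only for these. A fold with plain totals compares shares of the remaining UMIs, and a TMM fold compares them after rescaling by the TMM factors, so the 2 can differ in sign; neither is an amount per barcode.

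The higher calls rested on all libraries more than the lower ones did. Of the 504 genes, 501 were still called higher without replicate 1, 352 without replicate 2 and 466 without replicate 3, and 345 in all 3 of these fits. Of the 463 genes, 400 were still lower without replicate 1, 12 without replicate 2 and 0 without replicate 3. Every gene said below to have fallen was lost in at least 1 of these fits. Replicate 1 brought 26931 non-haemoglobin UMIs, and of the 10736 genes tested 7994 had any UMI and 1777 at least 10 UMIs in the haemoglobin-rich sums.

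Haem synthesis supplied the most abundant transcript. Alas2, the erythroid enzyme of the first step of haem synthesis (chrX:150547375-150570638, plus strand, GRCm38), had 78794, 83359.7 and 82958 CPM in the haemoglobin-rich barcodes, against 30.4, 516 and 152 CPM in all others. It rose in all 3 libraries (log2 fold 11.17 with TMM (SE 0.42, adjusted p = 5.64e-132) and 9.23 with plain totals (adjusted p = 7.77e-07)), and alone took 7.88%, 8.34% and 8.3% of the non-haemoglobin UMIs of the set. Fech, which inserts iron into the porphyrin ring, had 20682, 22698 and 17500.4 CPM in the haemoglobin-rich barcodes, against 52.1, 209 and 78.8 CPM in all others (log2 fold 9.65 with TMM (SE 0.43) and 7.73 with plain totals). Slc25a37, the mitoferrin that carries iron into mitochondria, had 26512, 24659 and 19702 CPM in the haemoglobin-rich barcodes, against 104, 289 and 183 CPM in all others (log2 fold 8.98 with TMM (SE 0.42) and 7.04 with plain totals). For each of these genes the lowest haemoglobin-rich value lay above the highest of the others, as it did for 351 of the 10736 genes tested (3.27%); for 9153 genes (85.3%) the highest haemoglobin-rich value lay below the lowest of the others. Alas2, Fech and Slc25a37 stayed higher in every fit that left out a library.

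Of 29 tested genes of haem synthesis and iron handling 12 rose and none fell, where 4.69% and 4.31% of all genes did. The list's median log2 fold was 2.07 with TMM and -0.09 with plain totals, against -1.26 and -3.40 over all genes. Slc25a39, a mitochondrial glutathione carrier, rose (14630, 15260.1 and 14386 CPM in the haemoglobin-rich barcodes, against 84.6, 152 and 104 CPM in all others). So did Glrx5 and Iscu, which build iron-sulfur clusters (1411, 1375 and 1439.5 CPM and 706, 557 and 583 CPM in the set), Slc48a1, a haem transporter (2933, 4193 and 4139.9 CPM), and Fth1, the ferritin heavy chain (2117, 4834 and 4855 CPM in the haemoglobin-rich barcodes, against 1139.9, 1400 and 1329.9 CPM in all others). The middle steps of the haem pathway were scarce: Urod rose (223, 324 and 536 CPM in the haemoglobin-rich barcodes, against 62.9, 63.3 and 61.7 CPM in all others), while Alad, Uros, Ppox and Cpox had between 6 and 16 UMIs in the whole set and did not pass both scalings. Tfrc, the transferrin receptor of immature red cells, had 0, 12 and 4 UMIs in the set and passed with TMM only. The iron exporter Slc40a1 had 0, 3.95 and 18.8 CPM in the haemoglobin-rich barcodes, against 163, 108 and 77.4 CPM in all others. It was lower with plain totals only, where 75.4% of all genes were lower.

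The promoters of Alas2, of Epb42 and Trim10, both described below, and of Hbb-bs are shown because they belong to genes that rose or that define the set and because each holds a short GATA motif, the kind of site that the erythroid factor Gata1 is known to bind. The sequences are the 300 bases around each start from RefSeq (GRCm38.p6), read along the gene's strand, with capitals marking matches on either strand to AGATAA or to CCNCNCCC, a form of the CACC box known from globin promoters.
Alas2 promoter, chrX:150547167-150547466, plus strand: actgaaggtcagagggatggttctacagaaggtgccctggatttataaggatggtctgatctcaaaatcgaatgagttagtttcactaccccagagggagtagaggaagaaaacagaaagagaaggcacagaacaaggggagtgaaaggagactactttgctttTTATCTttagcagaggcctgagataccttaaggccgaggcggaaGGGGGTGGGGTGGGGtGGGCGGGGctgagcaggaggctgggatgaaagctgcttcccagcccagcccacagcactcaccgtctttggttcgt
Epb42 promoter, chr2:121036828-121037127, minus strand: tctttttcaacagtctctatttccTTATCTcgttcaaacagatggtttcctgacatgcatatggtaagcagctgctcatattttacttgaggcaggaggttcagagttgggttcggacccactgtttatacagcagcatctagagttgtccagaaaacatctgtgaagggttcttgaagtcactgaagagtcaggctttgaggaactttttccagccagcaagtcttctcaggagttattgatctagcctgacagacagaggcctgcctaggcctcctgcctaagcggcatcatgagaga
Trim10 promoter, chr17:36869324-36869623, plus strand: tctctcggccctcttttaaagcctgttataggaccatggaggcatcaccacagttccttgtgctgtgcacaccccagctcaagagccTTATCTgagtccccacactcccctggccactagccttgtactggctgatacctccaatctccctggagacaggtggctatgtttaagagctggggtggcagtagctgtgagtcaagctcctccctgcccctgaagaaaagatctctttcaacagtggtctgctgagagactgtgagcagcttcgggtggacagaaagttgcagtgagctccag
Hbb-bs promoter, chr7:103827879-103828178, minus strand: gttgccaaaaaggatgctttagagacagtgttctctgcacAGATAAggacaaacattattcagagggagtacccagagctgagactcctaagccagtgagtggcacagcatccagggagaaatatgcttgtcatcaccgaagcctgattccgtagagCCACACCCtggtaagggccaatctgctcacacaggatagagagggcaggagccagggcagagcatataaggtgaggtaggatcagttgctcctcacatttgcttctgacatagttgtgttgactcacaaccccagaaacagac
Each of the 4 holds 1 match to AGATAA. Alas2 holds 4 matches to CCNCNCCC, which overlap or lie close together, Hbb-bs holds 1, and Epb42 and Trim10 none; in no case does a match of one motif overlap one of the other. Over all 32851 promoters given there, 11.2% hold AGATAA and 49.5% hold CCNCNCCC. Promoters were found for 389 of the 504 genes that rose, and of their 531 promoters 10.2% hold AGATAA and 68.9% CCNCNCCC, against 6.56% and 67.3% of the 10967 promoters of the genes tested. A match describes these letters only.

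The membrane skeleton rose almost as a whole. Of 11 tested genes 10 rose, where 4.69% of all genes did, and the list's median log2 fold was 10.54 with TMM and 8.47 with plain totals. Epb42, which ties the skeleton to the membrane, had 743, 624 and 913 CPM in the haemoglobin-rich barcodes, against 0.263, 2.73 and 0.787 CPM in all others. Add2, beta-adducin, had 74.3, 55.3 and 103 CPM in the haemoglobin-rich barcodes, against 0.0219, 0.111 and 0.0875 CPM in all others. Its log2 fold of 11.88 with TMM (SE 0.77) and 9.89 with plain totals rests on 27 UMIs in the set and 5 in all others. Epb41, which joins spectrin to actin, was the most abundant of the group, with 27032, 21872 and 24538 CPM in the set. Ank1, Sptb, Dmtn, Tmod1, Mpp1 and Stom rose as well. Add1, the adducin chain that leukocytes also carry, was the exception with 149, 154 and 84.7 CPM in the haemoglobin-rich barcodes, against 362, 389.6 and 429 CPM in all others. All 10 stayed higher in every fit without a library.

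Membrane transporters and blood group genes were mixed: 10 of 19 tested genes rose and 1 fell, where 4.69% and 4.31% of all genes did. Over the list, log2 folds had a median of 3.75 with TMM and 1.58 with plain totals. Slc4a1, the chloride and bicarbonate exchanger that is the main protein of the red cell membrane, had 11177, 7146 and 8778 CPM in the haemoglobin-rich barcodes, against 3.33, 31.6 and 10.7 CPM in all others (log2 fold 11.65 with TMM (SE 0.50, adjusted p = 8.25e-114) and 9.71 with plain totals (adjusted p = 2.24e-15)). Kel, the Kell antigen, had 37.1, 107 and 151 CPM in the haemoglobin-rich barcodes, against 0.154, 0.445 and 0.219 CPM in all others. These came from 1, 27 and 16 UMIs in the set and 20 UMIs in all others. Rhag, Aqp1, Aqp9, Bsg, Slc43a1, Xk and Abcb4 rose too, the last pair not without replicate 2. Cd47, the signal that restrains phagocytes, had 259.9, 439 and 273 CPM in the haemoglobin-rich barcodes, against 783, 761 and 705 CPM in all others. Cd47 was lower with plain totals only, where 75.4% of all genes were lower. Slc2a1, a glucose transporter, fell: it had 0 UMIs in the set, against 68.9, 72.2 and 77 CPM in all others. With plain totals it was at least 9.24-fold lower against a floor of 3 counts over the set. Over all genes the median log2 fold with plain totals was -3.40, so this bound alone does not set Slc2a1 apart.

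Of 25 tested enzymes of glycolysis, redox balance and gas exchange 11 rose and none fell, where 4.69% and 4.31% of all genes did. Over the list, log2 folds had a median of 1.72 with TMM and -0.32 with plain totals. Bpgm, which makes the phosphoglycerate that loosens oxygen from haemoglobin, had 62642, 58361 and 61383 CPM in the haemoglobin-rich barcodes, against 50.8, 321 and 126 CPM in all others (log2 fold 10.83 with TMM (SE 0.42) and 8.90 with plain totals). Car2, a carbonic anhydrase, had 11028, 10976 and 10886 CPM in the haemoglobin-rich barcodes, against 36.1, 85.5 and 55.3 CPM in all others, and Car1 rose too, though it had 7 UMIs in the whole set. Gpx1, Cat and Prdx2, which remove peroxides, had 35498, 42761 and 40420.4 CPM, 9134, 8743 and 10980.1 CPM and 3342, 3446 and 3481 CPM in the set, against 1034, 1167 and 878 CPM, 194, 289 and 286 CPM and 112, 139.5 and 105 CPM in all others. Hagh, a glyoxalase, Blvrb, a biliverdin reductase, and Nt5c3, which breaks down pyrimidine nucleotides, rose as well. Acp1 and Selenbp1 completed the 11, with Acp1 not called when replicate 2 or replicate 3 was left out. The glycolytic genes Gpi1, Pfkl, Pgk1 and Ldha had 13, 1, 3 and 13 UMIs in the set and were lower with plain totals only, as were G6pdx, Pgd, Gsr and Sod1. With that scaling 75.4% of all genes were lower.

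Ubiquitin and autophagy genes formed another abundant group. Of 25 tested 15 rose and none fell, where 4.69% and 4.31% of all genes did. The list's median log2 fold was 4.41 with TMM and 2.42 with plain totals. Ube2l6, a ubiquitin-conjugating enzyme that also handles the ubiquitin-like protein Isg15, had 20534, 23560.1 and 24905 CPM in the haemoglobin-rich barcodes, against 24.6, 174 and 65.2 CPM in all others. Ube2o, which is known to mark ribosomal and other proteins for removal in mouse reticulocytes, had 16635, 14296 and 16597 CPM in the haemoglobin-rich barcodes, against 35.2, 127 and 80 CPM in all others. Trim10, a ubiquitin ligase of erythroid cells, had 1337, 1253 and 1393 CPM in the haemoglobin-rich barcodes, against 0.373, 5.51 and 1.92 CPM in all others (log2 fold 11.47 with TMM (SE 0.58) and 9.44 with plain totals). Bnip3l, the receptor through which reticulocytes clear mitochondria, had 5533, 4778 and 5401 CPM in the haemoglobin-rich barcodes, against 87.7, 113 and 81.9 CPM in all others. Mkrn1, Rnf10, Ube2b, Ube2h, Gabarapl2, Map1lc3b, Xpo7, Trim58, Fbxo7 and Rnf123 rose with them, and all 15 stayed higher in every fit without a library. Ulk1, Atg7, Map1lc3a, Otub1 and Siah2 were lower with plain totals only, where 75.4% of all genes were lower.

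Translation and RNA genes rose for 9 of 18 tested, where 4.69% of all genes rose. The list's median log2 fold was 3.04 with TMM and 0.97 with plain totals. Tent5c, a polymerase that lengthens poly(A) tails, had 39694, 31868 and 33985 CPM in the haemoglobin-rich barcodes, against 115, 245 and 121 CPM in all others (log2 fold 9.78 with TMM (SE 0.42) and 7.86 with plain totals). Pabpc1, the poly(A) binding protein, had 12291, 7359 and 7715 CPM in the haemoglobin-rich barcodes, against 369, 384 and 290.4 CPM in all others. Ccndbp1, Dcaf12, Riok3, Ybx3, Eif5, Pabpc4 and Ppp1r15a made up the rest. Eif2ak1, the haem-regulated kinase of protein synthesis, had 74.3, 90.9 and 94.1 CPM in the haemoglobin-rich barcodes, against 85.7, 94.9 and 85.4 CPM in all others and passed with TMM only. Genes of the cytosolic ribosomal proteins could not be analysed. No symbol in the matrices starts with Rpl or Rps followed by a digit.

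Of 20 tested genes listed as other transcripts abundant in reticulocytes, 16 rose. This list too was chosen with earlier results of these data known, so the count is a description. The list's median log2 fold was 5.18 with TMM and 3.21 with plain totals, and of all genes 4.69% rose. Rsad2, an antiviral enzyme induced by interferon, had 22650.5, 18599.9 and 17030 CPM in the haemoglobin-rich barcodes, against 34.4, 129 and 41.3 CPM in all others, and Isg20, an RNA exonuclease, had 6275, 10067 and 9334 CPM in the haemoglobin-rich barcodes, against 37.3, 83.1 and 43.2 CPM in all others. Ucp2, a mitochondrial carrier that leukocytes also express, rose with a smaller fold (23059, 14916 and 21669 CPM in the haemoglobin-rich barcodes, against 2281, 2058 and 2099 CPM in all others; log2 fold 5.11 with TMM (SE 0.36) and 3.19 with plain totals). Ncoa4, the ferritin autophagy receptor, March2, Gclm, Tmcc2, Cpeb4, Mxi1, Odc1, Stradb, March8, Bsg, Spire1 and Pithd1 rose as well, and Pithd1 was not called when replicate 2 or replicate 3 was left out. Adipor1, an adiponectin receptor in no list, was also abundant in the set, with 13516, 13762 and 14744 CPM, against 629.6, 595 and 493 CPM in all others.

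**Figure D2:**
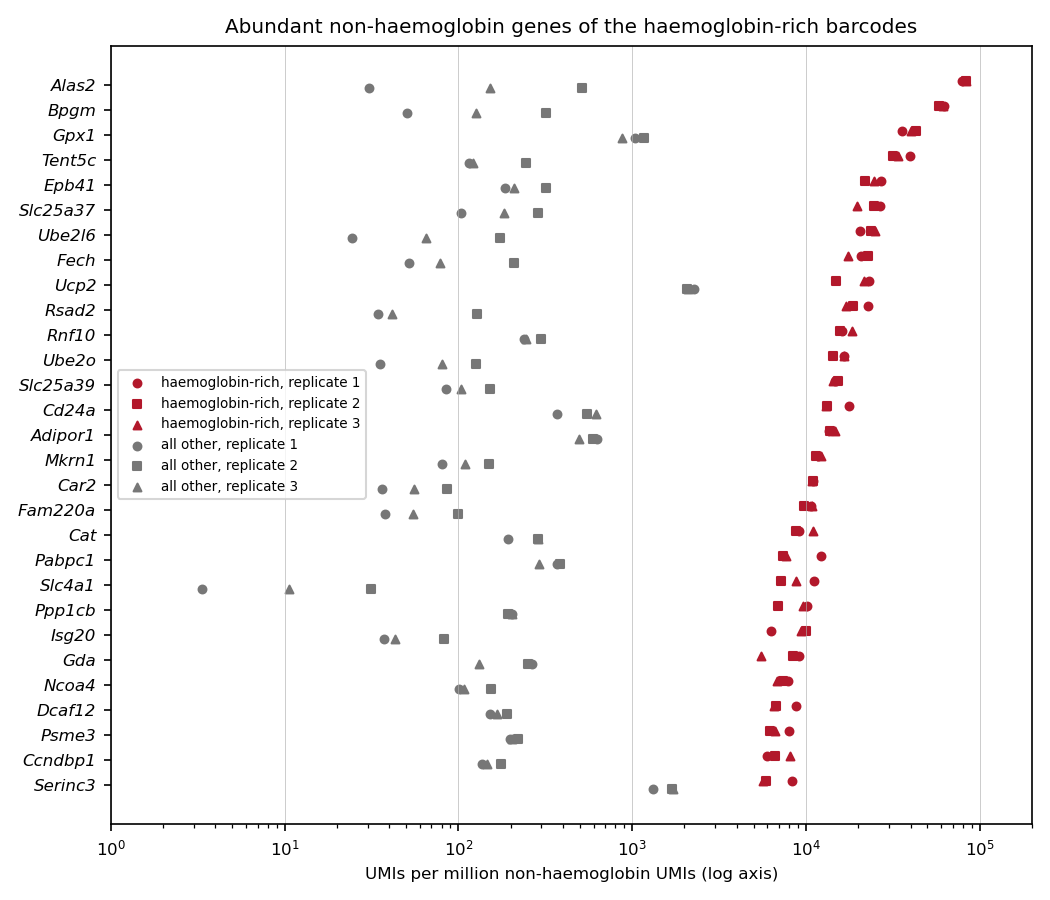
Level of abundant non-haemoglobin genes of the haemoglobin-rich barcodes, in CPM of non-haemoglobin UMIs on a logarithmic axis; red symbols are the haemoglobin-rich sums and grey symbols the sums of all other barcodes, with circles, squares and triangles for replicates 1, 2 and 3. Alas2 leads with 78794, 83359.7 and 82958 CPM. The genes were chosen for their level in the haemoglobin-rich barcodes.

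The regulators of red cell formation were less uniform. Of 20 tested 7 rose and 2 fell, where 4.69% and 4.31% of all genes did. Over the list, log2 folds had a median of 2.28 with TMM and 0.29 with plain totals. Bcl2l1, the survival factor Bcl-xL, had 5198, 3083 and 4055 CPM in the haemoglobin-rich barcodes, against 45.3, 53.3 and 40.7 CPM in all others. E2f2, a cell cycle transcription factor, had 1931, 1458 and 1186 CPM in the haemoglobin-rich barcodes, against 51.4, 61.3 and 55 CPM in all others, and Lmo2, a partner of Gata1 and Tal1, had 1188, 759 and 659 CPM in the haemoglobin-rich barcodes, against 184, 271 and 341 CPM in all others. Foxo3 also rose. The transcription factors Gata1, Tal1 and Zfpm1 had 8, 11 and 23 UMIs in the set and rose, but none of them was called without replicate 2. Zbtb7a and Klf13 fell, with 2 and 5 UMIs in the set, against 214, 207 and 221 CPM and 368, 362 and 346 CPM in all others. For Zbtb7a the 95% counting interval of the pooled ratio with plain totals ran from 0.00292 to 0.0872. The median log2 fold over all genes with plain totals was -3.40. Epor, the erythropoietin receptor, had 2 UMIs.

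Surface genes of immature red cells and proliferation genes were mixed. Cd24a, the heat-stable antigen, had 17749, 13181 and 13022 CPM in the haemoglobin-rich barcodes, against 367, 551 and 616 CPM in all others, and Cd36, a scavenger receptor, had 965, 1032 and 884 CPM in the haemoglobin-rich barcodes, against 59.2, 39.4 and 32 CPM in all others; both rose. Kit, Icam4 and Vcam1 had 0 UMIs. Itgb1 had 74.3, 170 and 132 CPM in the haemoglobin-rich barcodes, against 194, 148 and 115 CPM in all others, a log2 fold of 2.00 with TMM and 0.00 with plain totals. Of 16 proliferation genes 5 rose, where 4.69% of all genes did. Another 6 were lower with plain totals only, where 75.4% of all genes were lower. Ccna2, Rrm2 and Mki67 had 24, 21 and 16 UMIs in the whole set, and Mki67, Top2a and Ccnb2 were not called without replicate 2. Ube2c, which is known for its part in leaving mitosis and was in no list, had far more, 1411, 1423 and 1487 CPM in the haemoglobin-rich barcodes, against 3.71, 7.29 and 2.8 CPM in all others.

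Other globins and unlisted genes added further high transcripts. Hbq1a and Hbq1b, the theta globins, had 111, 470.3 and 339 CPM and 37.1, 245 and 198 CPM in the set, against 0.0439, 2.56 and 0.525 CPM and 0.132, 1.73 and 0.306 CPM in all others. Both rose, and 36.8% of the 50-base windows of Hbq1a occur in Hbq1b. The embryonic gene Hbb-bh1 had 11 UMIs in replicate 2 and Hbb-y 5 in replicate 3, with 0 in the other haemoglobin-rich sums. Of the genes in no list, Apol11b, of the apolipoprotein L family, had the highest log2 fold among those at 50 CPM or more (4122, 3352 and 3189.6 CPM in the haemoglobin-rich barcodes, against 1.36, 19.4 and 4.15 CPM in all others; log2 fold 11.41 with TMM (SE 0.53) and 9.46 with plain totals). It was followed by Rec114, known from meiotic recombination, with 557, 672 and 819 CPM in the set, Paqr9 with 1522, 956 and 1167 CPM and Tspo2, the erythroid translocator protein, with 446, 696 and 555 CPM. Aldh1a1, a retinaldehyde dehydrogenase, had 1968, 2533 and 2559 CPM in the haemoglobin-rich barcodes, against 1.54, 17 and 9.4 CPM in all others, and Sox6, an erythroid transcription factor, had 37.1, 35.6 and 103 CPM in the haemoglobin-rich barcodes, against 0.0877, 0.612 and 0.0875 CPM in all others. Gstm5, Tspan33, Cdr2, Hebp1, Slc38a5, Prxl2a, Nusap1 and the entry of Fam220a with the ID ENSMUSG00000083012 completed the 15 highest, and all 15 rose.

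The 10 lowest genes in no list all had 0 UMIs in the set. Their bounds use plain totals, where the median log2 fold over all genes tested was -3.40. Rbm42, an RNA-binding protein gene, had 192, 180.4 and 203 CPM in all others, which makes it at least 24.8-fold lower in the set. For Gngt2, a G protein subunit, Eif2ak3, the stress kinase of the endoplasmic reticulum, and Cd40, a receptor of antigen-presenting cells, the bounds were at least 25-fold, 19.3-fold and 16.9-fold lower. Gmfb, Il6st, Acss1, Rgl2, Daxx and B3gnt8 had bounds between 14.4-fold and 23.2-fold. None of the 10 was called when replicate 2 or replicate 3 was left out.

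**Figure D3:**
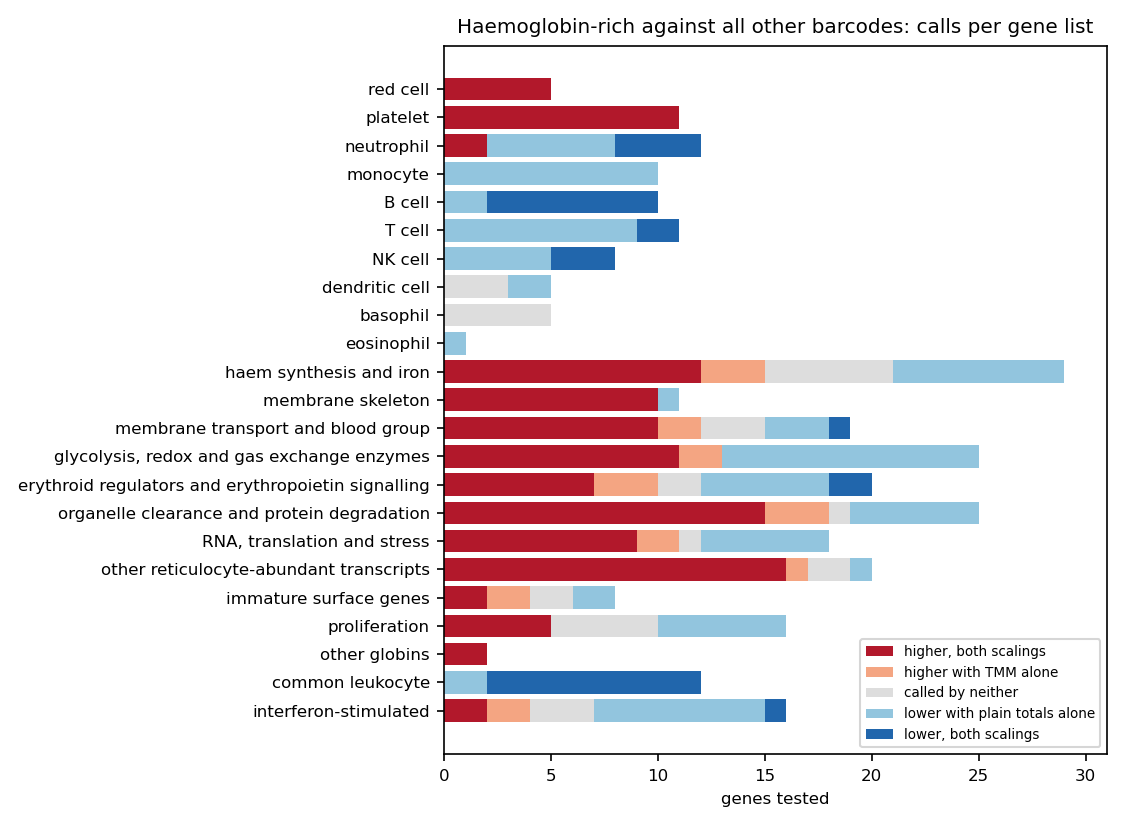
Number of tested genes of each list (horizontal axis) by their call in the haemoglobin-rich barcodes against all others at an adjusted p of 0.05: red, higher under both scalings; orange, higher with TMM alone; grey, called by neither; light blue, lower with plain totals alone; dark blue, lower under both. The membrane skeleton list has 10 of 11 genes higher under both scalings and the common leukocyte list 10 of 12 lower under both. Over all genes these shares were 4.69% and 4.31%.

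Of 16 tested genes listed as interferon-stimulated 2 rose and 1 fell, where 4.69% and 4.31% of all genes did, and 8 more were lower with plain totals only, where 75.4% of all genes were lower. Rsad2, Isg20 and Ube2l6, which interferon also induces, were counted in other lists and rose. The list's median log2 fold was 0.66 with TMM and -1.52 with plain totals. Isg15 had 1559.5, 1885 and 1439.5 CPM in the haemoglobin-rich barcodes, against 43.3, 55.3 and 27.6 CPM in all others (log2 fold 7.27 with TMM (SE 0.48) and 5.32 with plain totals), and Irf7, a transcription factor of the interferon response, had 371, 423 and 461 CPM in the haemoglobin-rich barcodes, against 133, 121 and 93 CPM in all others. Zbp1, a nucleic acid sensor, had 1 UMI in the set, against 156, 132 and 103 CPM in all others, and its call was lost whichever library was left out. Oasl2 had 37.1, 59.3 and 37.6 CPM in the haemoglobin-rich barcodes, against 77.5, 78.8 and 38.4 CPM in all others, a log2 fold of 1.74 with TMM and -0.38 with plain totals.

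Mitochondrially encoded transcripts were a small share. They came to 0.334%, 0.241% and 0.223% of the non-haemoglobin UMIs in the haemoglobin-rich barcodes, against 0.569%, 0.406% and 0.349% in all others. Of the 13 genes none passed under both scalings: 4 were higher with TMM and 9 lower with plain totals, against 7.7% and 75.4% of all genes. mt-Co1 had 854, 735 and 499 CPM in the haemoglobin-rich barcodes, against 692, 517 and 425 CPM in all others (log2 fold 2.31 with TMM and 0.36 with plain totals). mt-Co3 had 223, 249 and 358 CPM in the haemoglobin-rich barcodes, against 529, 357 and 306 CPM in all others, and its log2 fold was 1.59 with TMM and -0.38 with plain totals.

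Most of the common leukocyte genes fell, and markers of single leukocyte types fell in part. The 12 common leukocyte genes summed to 2265, 10145.8 and 7527 CPM in the haemoglobin-rich barcodes, against 28711, 28704 and 25949 CPM in all others. Of them 10 fell, Cytip, Cd53 and Coro1a among them, and Tmsb4x, with 743, 8838 and 6097 CPM in the haemoglobin-rich barcodes, against 11139.8, 11421 and 9109 CPM in all others, and Laptm5 were lower with plain totals only. Of the B cell markers 8 of 10 fell, of the T cell markers 2 of 11, of the NK cell markers 3 of 8 and of the monocyte markers 0 of 10; all 39 were lower with plain totals, as were 75.4% of all genes, while 4.31% of all genes fell. Cd79a, a B cell receptor chain, had 37.1, 63.2 and 122 CPM in the haemoglobin-rich barcodes, against 1114, 2237 and 2759.9 CPM in all others, and Trac, the constant region of the T cell receptor alpha chain, had 0, 27.7 and 18.8 CPM in the haemoglobin-rich barcodes, against 694, 424 and 363 CPM in all others. Without replicate 3 none of these genes was called lower with TMM. Dendritic cell, basophil and eosinophil markers had 3, 2 and 1 UMIs in the set.

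Among neutrophil markers the direction differed between genes, where 4.69% of all genes rose and 4.31% fell. The list summed to 2636, 1735 and 856 CPM in the set, against 17934, 11821 and 9111 CPM in all others, and 4 of 12 fell, including S100a8 and S100a9. Ltf and Camp, the granule proteins lactoferrin and cathelicidin that neutrophils make while still immature, rose: Ltf had 74.3, 90.9 and 37.6 CPM in the haemoglobin-rich barcodes, against 4.19, 35.7 and 2.71 CPM in all others, and Camp had 111, 115 and 18.8 CPM in the haemoglobin-rich barcodes, against 5.59, 53.3 and 3.94 CPM in all others. Ltf had 29 UMIs and Camp 34 in the whole set. Both stayed higher in every fit that left out a library, and also without the 116 haemoglobin-rich barcodes that met the marker rule of another cell type, where the log2 fold was 3.2 for Ltf and 2.88 for Camp. Without the library block neither passed the threshold.

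Platelet markers rose in the set, unequally between libraries, where 4.69% of all genes rose. All 11 tested genes rose, 9 of them also when any library was left out; Ppbp, a platelet chemokine, had 74.3, 2379 and 2305 CPM in the haemoglobin-rich barcodes, against 59.2, 396 and 309 CPM in all others, and Tubb1, platelet tubulin, had 74.3, 1509.8 and 1374 CPM in the haemoglobin-rich barcodes, against 67.7, 309 and 266 CPM in all others. The 12 genes of the list summed to 186, 7197 and 6012 CPM in the set, against 276, 1246 and 1014 CPM in all others, so replicate 1 was lower in the set. No haemoglobin-rich barcode of replicate 1, 72 of replicate 2 and 26 of replicate 3 carried at least 4 distinct platelet markers and more of these than of any other list. The neutrophil rule was met by 1, 15 and 0, and the B cell rule and the T cell rule by 1 each. Without these 116 barcodes, an alternative chosen after seeing the data, the platelet list summed to 187, 2337 and 1633 CPM and 7 of its 11 genes were higher with TMM; Itgb3, an integrin chain, was no longer called (log2 fold 1.33, against 3.37 with all barcodes). Over all genes 452 of the 504 that rose and 301 of the 463 that fell were then still called. The red cell list then summed to 228603, 234892 and 223574 CPM.

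The marker lists also varied with the haemoglobin share within the set. That share chose the set, so these sums are a description. In replicate 2 the red cell list summed to 98574, 141721, 207761 and 273103 CPM in barcodes with haemoglobin shares of 50 to 60%, 60 to 70%, 70 to 80% and 80 to 90%. The platelet list summed to 37298, 19977, 5828 and 2898 CPM over the same bins, and the common leukocyte list to 31186, 21279, 8683 and 7140.8 CPM. In replicate 3 the red cell list summed to 127385, 165015, 215604 and 283967 CPM and the common leukocyte list to 16393, 12096, 6164 and 4938 CPM, and the platelet list summed to 19349.6, 16426, 3039 and 941 CPM. In those libraries the red cell list was thus higher and the platelet and common leukocyte lists lower at higher haemoglobin share. Of the other leukocyte lists, only those of neutrophils, B cells and T cells were binned, and none was lower at higher share in both libraries. The neutrophil list had 313, 1028, 1914 and 1818 CPM in replicate 2 and 537, 357, 1087 and 800 CPM in replicate 3. The B cell list had 313, 1096, 680 and 793 CPM in replicate 2 and 537, 1071, 1749 and 1505 CPM in replicate 3. The T cell list had 1254, 343, 269 and 331 CPM in replicate 2, with 8 UMIs in the lowest bin. In replicate 3 it had 0, 134, 153 and 376 CPM. Tmsb4x alone gave 8838 of the 10145.8 CPM of the common leukocyte list in the set of replicate 2, and it had 38262, 45104 and 43605 CPM in platelet-marker barcodes. In replicate 1 the red cell list summed to 189522, 219883, 238403 and 317460 CPM, while the platelet list had 4, 0, 1 and 0 UMIs. The common leukocyte list had 3621, 2367, 1745 and 2976 CPM there, and the neutrophil list 1207, 2242, 3126 and 4960 CPM. The B cell list had 724, 747, 509 and 1984 CPM and the T cell list 483, 125, 436 and 0 CPM. In the highest bin these came from 3, 5, 2 and 0 UMIs. The lowest bin of replicate 2 holds 9 barcodes and the highest of replicate 1 holds 6.

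**Figure D4:**
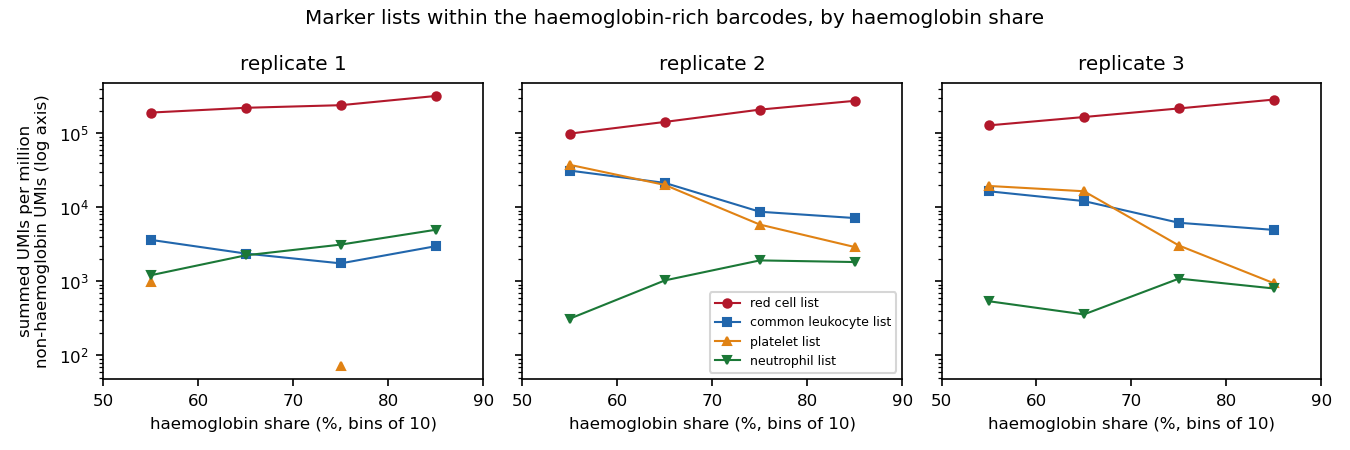
Summed level of 4 marker lists in the haemoglobin-rich barcodes (vertical axis, CPM of non-haemoglobin UMIs, logarithmic) by haemoglobin share in bins of 10% (horizontal axis), 1 panel per library; sums of 0 UMIs, and the 2 barcodes of replicate 2 above 90%, are not drawn. The platelet list is at 37298 CPM in the lowest bin of replicate 2 and at 2898 CPM between 80% and 90%.

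Single genes also varied among the barcodes of the set by more than counting. For each gene the variance over barcodes was divided by the variance that Poisson counting would give at each barcode's non-haemoglobin total, so that 1 means counting noise alone. Over the 141 non-haemoglobin genes at 500 CPM or more in every library the median of its mean over libraries was 1.53. Car2 had the highest mean ratio, 6.47, 9.32 and 7.91 in replicates 1, 2 and 3, and was seen in 55.6%, 59.2% and 50.5% of the barcodes. Rsad2 had 9.35, 8.6 and 5.35, Isg15 4.08, 7.59 and 5.71, and Apol11b 5.66, 4.76 and 3.82. Slc4a1 had 3.22, 3.1 and 4.17 and Alas2 3.22, 5.06 and 4.39. Each of these genes exceeded counting noise in every library, and Fech, at 2.01, 2.0 and 1.85, did so by less. Tmsb4x, also among the highest by its mean, had 1.51, 10.8 and 7.7; in replicates 2 and 3 its residuals went with those of the platelet gene Pf4 (Pearson's r 0.475 and 0.513, a description), and Pf4 was at 0 in replicate 1.

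Some pairs of these genes varied together in each library; the pairs were picked after their values were seen. Across the 99, 758 and 412 barcodes, Pearson's r of the Poisson residuals was 0.458, 0.491 and 0.405 between Car2 and Slc4a1. Between Alas2 and Car2 it was -0.522, -0.358 and -0.397, and between Alas2 and Slc4a1 -0.418, -0.281 and -0.317. Rsad2 went with Isg15 at 0.523, 0.463 and 0.334 and with Irf7 at 0.423, 0.35 and 0.289, while Rsad2 and Car2 stood at -0.029, 0.151 and 0.12. Apol11b went with neither, at -0.121, -0.0293 and -0.0217 with Car2 and -0.114, -0.0247 and 0.0661 with Isg15. Alas2 went with the haemoglobin share, which chose the set, at 0.41, 0.74 and 0.694. Against the same share Car2 stood at -0.201, -0.376 and -0.354 and Slc4a1 at -0.394, -0.302 and -0.369. The pairs of Alas2, Car2 and Slc4a1 are thus not separate from that share. These barcodes share a library and a depth range, genes divide 1 total so that abundant genes are pushed towards negative r, and r is given as a description with no test.

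Red cell transcripts outside the set could be read against haemoglobin. Other barcodes were grouped by the marker list of which they had most genes, at least 4. In replicate 2, the library with the most haemoglobin outside the set, Alas2 had 22.9 UMIs per 1000 haemoglobin UMIs in the haemoglobin-rich barcodes, against 24.2, 24.0, 24.1, 20.7, 17.8 and 23.3 in barcodes with platelet, neutrophil, monocyte, B cell, T cell and NK cell markers. In replicate 3 it had 26.3, against 38.7, 29.9, 32.0, 26.5, 21.1 and 20.8. In replicate 1 it had 32.5, against 54.0, 39.8, 43.0, 38.2, 32.5 and 24.7. Slc25a37 had 6.78 in the set of replicate 2, against 6.84, 10.1, 12.9, 13, 8.42 and 11.1 in the same classes, and 10.9 in that of replicate 1, against 27.6, 113, 345, 225, 77.4 and 76.6. Tent5c had 8.76 in the set of replicate 2, against 9.2, 7.75, 7.35, 7.46, 18 and 6.59, and 16.4 in that of replicate 1, against 35.1, 42.5, 27.9, 29.4, 343 and 32.7. For all 3 genes the ratios were closer to even in replicate 2 than in replicate 1, and within replicate 1 those of Alas2 spanned the least.

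**Figure D5:**
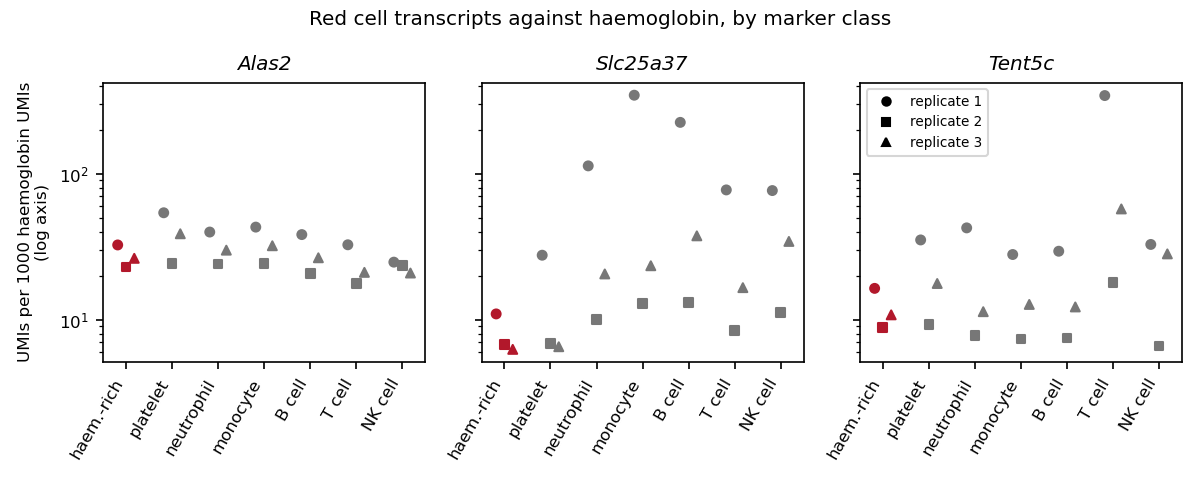
UMIs of 3 red cell genes per 1000 haemoglobin UMIs (vertical axis, logarithmic) in the haemoglobin-rich barcodes (red, left) and in 6 marker classes of the other barcodes (grey), with circles, squares and triangles for replicates 1, 2 and 3. In replicate 2 Alas2 lies between 17.8 and 24.2, Slc25a37 between 6.78 and 13 and Tent5c between 6.59 and 18; in replicate 1 Alas2 lies between 24.7 and 54.0, Slc25a37 between 10.9 and 345 and Tent5c between 16.4 and 343.

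Against platelet-marker barcodes, the set differed in a smaller tested group of genes. Platelets too lack a nucleus, but these barcodes were chosen by their markers alone. Whether they also held other cells was not tested. The comparison used 48, 134 and 155 such barcodes and 1819 genes outside the marker lists: 480 were higher with TMM, 26.4%, and 550 lower, 30.2%, against 272, 15%, and 1301, 71.5%, with plain totals. Ube2c, Tmod1, Ank1, Trim10 and Slc4a1 were the highest and rose. Slc4a1 had 11177, 7146 and 8778 CPM in the set, against 63.7, 90.1 and 21.4 CPM in platelet-marker barcodes (log2 fold 9.21 with TMM, SE 0.68), and Ube2c 1411, 1423 and 1487 CPM, against 0, 9.48 and 0 CPM. The lowest were Frmd4b, Fam110b, Gramd1c, Mcu, the channel of mitochondrial calcium uptake, and Ccdc88a, all at 0 UMIs in the set. Frmd4b had 273, 218 and 201 CPM in platelet-marker barcodes. With plain totals it was at least 28.5-fold lower in the set, where the median log2 fold of the 1819 genes was -2.32. Without replicate 3 the counts with TMM were 32 higher and 0 lower, and without replicate 2 they were 355 and 222. Without the 116 haemoglobin-rich barcodes that met another marker rule, 72 and 26 of them by the platelet rule in replicates 2 and 3, they were 339 and 1053.

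Against the 1797, 479 and 483 neutrophil-marker barcodes, 5783 genes were tested: 595 were higher with TMM, 10.3%, and 2702 lower, 46.7%, against 486, 8.4%, and 4031, 69.7%, with plain totals. Dmtn, Trim58, Slc4a1, Ank1 and Prxl2a were the highest and rose. Dmtn, an actin-bundling protein of the red cell skeleton, had 259.9, 194 and 141 CPM in the set and 0 UMIs in all neutrophil-marker sums, and Slc4a1 had 11177, 7146 and 8778 CPM, against 1.1, 27.4 and 9.89 CPM. Sfxn5, Nlrp3, Antxr2 and Cstdc4 had 0 UMIs in the set. With plain totals Nlrp3, an inflammasome sensor, was at least 57.3-fold lower and Sfxn5 at least 66.2-fold lower. The median log2 fold of the 5783 genes was -2.48 with that scaling. Leaving out a library moved the counts to between 341 and 874 higher and to between 807 and 1359 lower, the fewest in both directions without replicate 2.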

How the data were processed

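The 3 libraries of fixed mouse blood leukocytes were analysed from the raw UMI counts per gene and barcode that the authors deposited, with no normalization; the software was Cell Ranger 7.1.0, per the file headers, and the deposited barcode and feature lists hold identifiers (unit other). The sources used here name neither build nor probe set. The matrices list 19059 features.

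Depth was 45718031, 19591648 and 23443660 UMIs in replicates 1, 2 and 3. Barcodes were chosen by haemoglobin share, raw counts were summed per library for the chosen and the other barcodes, and the sums without the 4 haemoglobin genes were compared in edgeR 4.0.16 (TMM scaling, low genes removed by filterByExpr, robust quasi-likelihood fit) at a Benjamini-Hochberg adjusted p of 0.05. Library is a block, since both sums come from the same library. Each SE was derived from a gene's log2 fold and its quasi-likelihood F. The steps were tested on simulated data in which both sums shared the mean profile of the comparison barcodes, apart from altered genes. The simulation lacked the real difference in makeup between the sums, so it cannot decide between the scalings. Marker classes needed at least 4 distinct markers. No doublet caller was run and no other filter was applied to barcodes. Intervals and floors of 3 counts cover counting error only.

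The members and all gene lists were chosen with earlier results of these data known. Of the 239 genes of the 13 pathway lists 232 have an entry in the matrices; genes listed under more than 1 ID were left out of the lists. Named by rule are the 5 markers, from each list the 3 highest and 2 lowest called genes at 10 CPM or more that moved the same way in every library, the 15 highest and 10 lowest in no list at 50 CPM or more, and the 5 highest and 5 lowest of the other comparisons. Other genes were named after their values were seen, and some genes that the rule names are not reported here. Alternatives were plain totals, DESeq2 1.42.0, no filter, no block, leaving out a library, a share of 80%, at least 200 genes, all globins left out, other barcodes under 1% haemoglobin and, added after seeing the data, leaving out members that met another marker rule. Promoters are from RefSeq and transcripts and positions from GENCODE M21.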

Additional observations from a re-analysis of the deposited data

How the results depend on the processing

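The counts of called genes depended on the scaling, on the libraries and on the threshold. Of 83 genes named against all other barcodes, 78 kept their call with plain totals, 53 without replicate 2 and 54 without replicate 3. Against all other barcodes, the 827 higher and 463 lower genes became 504 and 8092 with plain totals, 656 and 578 with DESeq2, 488 and 371 at a haemoglobin share of 80%, and 545 and 771 with at least 200 genes; without a filter on low counts there were 293 lower genes. Without the replicate block, which pairs the 2 sums of a library by construction, there were 924 higher and 1261 lower genes. Leaving out a library gave 360 to 889 higher and 0 to 616 lower. Against platelet-marker barcodes the 480 higher genes became 272 with plain totals, 304 with DESeq2, 295 at 80% and 170 with at least 200 genes, and the 550 lower became 1301, 830 with no filter, 122 with at least 200 genes and 1053 without members that met another marker rule; leaving out a library gave 32 to 623 and 0 to 415. Without the block these counts were 512 and 638. Against neutrophil-marker barcodes the 595 higher genes became 913 with no filter, 316 at 80% and 339 with at least 200 genes, and the 2702 lower became 1520 with DESeq2 and 1080 with at least 200 genes; leaving out a library gave 341 to 874 and 807 to 1359, and dropping the block 672 and 3199. The share of haemoglobin-rich barcodes at 80% was 0.054%, 6.5% and 1.75% in replicates 1, 2 and 3. These were 6, 373 and 123 barcodes. The fits with at least 200 genes held 1, 73 and 16 haemoglobin-rich barcodes, so replicate 1 was a single barcode there. Reversed were Itgb1 at 80% (-0.54), Oasl2 with plain totals (-0.38) and with at least 200 genes (-0.27), mt-Nd6 with at least 200 genes (-0.61) and mt-Co3 with plain totals (-0.38), all log2 folds, none past the threshold. Against all other barcodes the median log2 fold of all genes was -1.26 with TMM and -3.40 with plain totals. What caused these changes was not tested. A floor of 3 counts over the set limits how low a gene can be shown to be.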
